A study of Rattus with 9 samples.

Results

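The phase II conjugation enzymes of rat liver described here are the UDP-glucuronosyltransferases (Ugt), the glutathione S-transferases (Gst) and the cytosolic sulfotransferases (Sult). They were taken by name, as the protein-coding rows of the expression table whose symbol starts with Ugt1, Ugt2 or Ugt3, with Gst and a class letter, or with Sult1 to Sult6. The rule found 35 rows among 20236, of which 5 were Ugt, 20 Gst and 10 Sult. They carry 34 distinct symbols, because Sult1c2 stands on 2 rows. Of the 35, 28 passed the filter on low values, which asked for 1 FPKM or more (fragments scaled to gene length and to the library total) in 3 or more libraries, and entered the test. These were 5 Ugt, 18 Gst and 5 Sult rows.

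Poly(A) RNA was sequenced from livers of rats of the outbred Sprague-Dawley stock, in a study of pomegranate in hyperlipidemia, a raised level of blood lipids. There were 3 libraries labelled model, 3 labelled pomegranate-high and 3 labelled normal control, all taken after 8 weeks of administration. All 3 groups share strain, tissue and duration. The labels do not describe how the model was made, the pomegranate preparation or its dose, nor sex, age or whether each library came from a separate animal. The p-values below therefore measure the spread between these libraries, which may be technical in part. The sources used here do not give whether the pomegranate-high rats also received the model treatment.

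Conjugation makes drugs, bilirubin, bile acids, hormones and reactive by-products of metabolism more water-soluble, so that they can leave in bile or urine. A UGT transfers glucuronic acid from UDP-glucuronic acid in the endoplasmic reticulum, a GST joins glutathione to an electrophile, and a SULT transfers sulfate from the donor PAPS in the cytosol. Liver holds large amounts of these enzymes, many of their genes lie in clusters of near-identical copies, and several are known targets of the xenobiotic receptors and of the oxidative stress factor Nrf2.

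Clustered copies matter for what each value measures. Positions are those of the deposited table, on build Rnor_6.0 per the submitters' processing notes. The row of Gstm7 covers chr2:210720704-210782856 on the minus strand, and the rows of Gstm3, Gstm6 and Gstm6l lie inside it on the same strand. The row of Ugt2a1 covers chr14:22192970-22619968 on the plus strand and holds the rows of Ugt2b37 and Ugt2b35. Gsto1 lies inside Gsto2 on the same strand, Gsta3 inside Gsta1 on the opposite strand, and Sult1c2a inside the second Sult1c2 row on the opposite strand. Ugt1a5 is the only Ugt1a row and covers 141666 bp, where the RefSeq table of assembly GRCr8 lists 8 Ugt1a symbols, so its value was read as the Ugt1a locus and not as 1 enzyme. The assignment of reads in overlapping or near-identical rows is not given by the labels, and the split among these copies is uncertain. The protein names in the table also differ from some symbols, with the Gsta1 row paired with alpha-3, the Gsta5 row with alpha-2 and the Ugt2b37 row with UGT 2B2.

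Reads recovered from the FPKM steps gave depths of 13678658 to 17966670 per library. All 8 hepatocyte markers were present, with summed levels of 64290 to 85677 FPKM. Mitochondrially encoded genes took 4.17% to 14.5% of the reads, and the 3 highest shares were in model replicate 1 (14.5%) and pomegranate-high replicates 2 (11.4%) and 1 (9.62%). Values given without these 3 libraries rest on pomegranate-high replicate 3 as the only library of its group. Marker lists of other liver cells, described with the comparisons, differed between groups. In bulk liver RNA, fewer cells of a type and less RNA per cell cannot be told apart.

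On the FPKM scale, which corrects for gene length, the conjugation enzymes ranged from abundant to barely detected. Gstm1, a mu-class transferase, averaged 1529 FPKM over the 9 libraries and ranked 46 among all 20236 rows. Gstm7, another mu-class row, averaged 682 FPKM, Sult1a1, the phenol sulfotransferase, 456 FPKM, and Gsta1, an alpha-class transferase, 386 FPKM. These 4 rows made up 56.8% of the summed FPKM of all 35, and Gstm1 with Gstm7 alone 41.1%. By mean level, 12 rows stood at 100 FPKM or more, 12 from 10 to 100, 4 from 1 to 10 and 7 under 1. Together the 35 rows took 0.875% to 1.16% of the reads of a library.

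**Figure D1:**
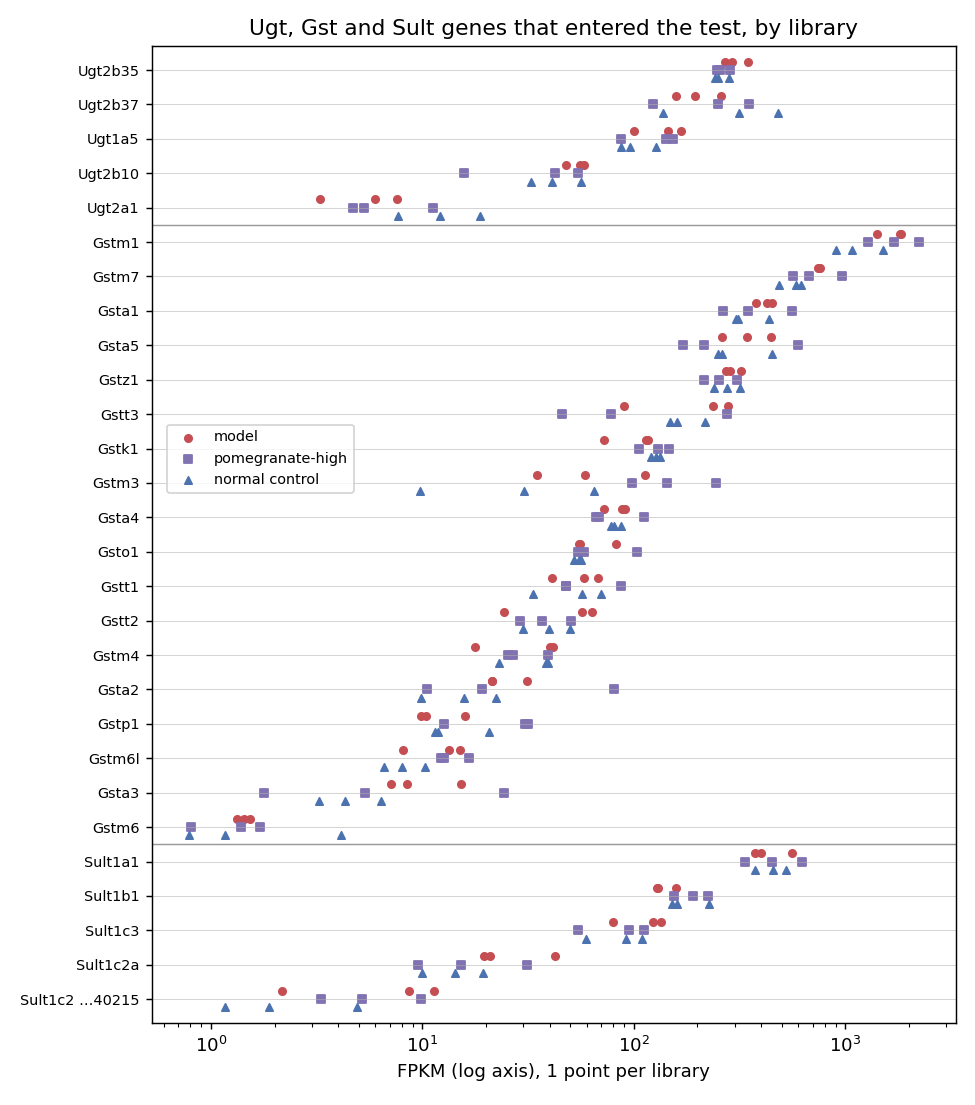
FPKM on a log axis of the 28 Ugt, Gst and Sult rows that entered the test, with 1 point for each of the 9 libraries, model, pomegranate-high and normal control drawn from top to bottom within a row. Rows are ordered by mean level within each family, and the points of Ugt2b35 lie close together where those of Gstm3 and Gsta3 spread widely.

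The 7 rows that did not pass the filter were all low. Gstcd, named for a GST-like C-terminal domain, stayed between 0.189 and 0.604 FPKM, and Gsto2, an omega-class transferase, between 0.168 and 0.571 FPKM. The second Sult1c2 row (ENSRNOG00000031833) stayed between 0.0565 and 0.729 FPKM, Sult6b1 between 0.0550 and 0.894 FPKM and Sult1d1 between 0.0430 and 0.382 FPKM. Sult5a1 was listed from 0 to 0.657 FPKM. Sult2b1, a cholesterol sulfotransferase and named here after its values were seen, ranged from 0 to 2.29 FPKM, with its highest value in pomegranate-high replicate 1. For a gene of 1 kb, a count of 0 leaves room for up to 3 reads, or 0.167 to 0.219 FPKM depending on the library, by counting error only.

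Among the Ugt rows, Ugt2b35 had the narrowest range. It stood at 347, 269.7 and 290.2 FPKM in model livers, 247, 256 and 285 FPKM in pomegranate-high livers, and 250.2, 243 and 283 FPKM in normal control livers. The groups overlapped in every comparison, and the highest value was 1.43 times the lowest. The interval of the pomegranate-high minus normal control difference ran from −0.46 to 0.50 on the log2(FPKM + 1) scale.

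Ugt2b37 covered a much wider range. Its levels were 195, 259 and 159 FPKM in model livers, 122.7, 249 and 352 FPKM in pomegranate-high livers, and 479, 137 and 316 FPKM in normal control livers. Normal control replicate 1 was highest and pomegranate-high replicate 1 lowest, 3.90 times apart, and no group stood apart from another.

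Ugt2a1, an enzyme first known from the nasal epithelium, had the lowest level of the Ugt rows. It stood at 3.28, 7.56 and 5.94 FPKM in model livers, 4.70, 5.31 and 11.2 FPKM in pomegranate-high livers, and 18.7, 7.67 and 12.1 FPKM in normal control livers. Every model library was below every normal control library, although model replicate 2 and normal control replicate 2 differed by little. The model minus normal control difference was −1.05 ± 0.40 (SE) on the log2(FPKM + 1) scale, with an unadjusted p = 0.0242 and an adjusted p = 0.999 in limma with Benjamini-Hochberg adjustment over all genes tested. The difference between pomegranate-high and normal control livers was −0.78 ± 0.40, with 95% limits of −1.66 and 0.10. Without the 3 libraries of highest mitochondrial share it was −0.096, with pomegranate-high replicate 3 the only library left in its group.

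Ugt2a1 and Ugt2b37, whose rows overlap, varied together across the 9 libraries. Pearson's r was 0.76 (exact permutation p = 0.0173, 0.104 adjusted over 6 overlapping pairs) and Spearman's rho 0.72 (exact permutation p = 0.0369, 0.221 adjusted). Without model replicate 1 and normal control replicate 1, the libraries farthest from the median of Ugt2a1, r was 0.72. For Ugt2a1 and Ugt2b35, which also overlap, r was −0.38, and 0.54 without the same 2 libraries, so that its sign rests on them. Groups of 3 libraries are too small for a value within each group, so differences between groups enter these correlations. The part that shared reads have in the Ugt2a1 level was not tested.

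Ugt1a5, the row of the locus that makes the bilirubin- and phenol-conjugating UGTs, had 145, 100.2 and 166 FPKM in model livers, 143, 86.6 and 154 FPKM in pomegranate-high livers, and 87.3, 127 and 96.2 FPKM in normal control livers. Ugt2b10, a member of the family that conjugates steroids and other lipids, had 55.6, 47.8 and 57.9 FPKM in model livers, 42.5, 15.7 and 54.2 FPKM in pomegranate-high livers, and 32.8, 40.9 and 56.3 FPKM in normal control livers. Groups overlapped for both genes, and the low value of Ugt2b10 belonged to pomegranate-high replicate 2 alone. Its pomegranate-high minus normal control difference was −0.34 ± 0.41 (SE) with all libraries and 0.18 without that library, a change of sign. Without the 3 libraries of highest mitochondrial share, where pomegranate-high replicate 3 alone was left in its group, it was 0.35. The pomegranate-high minus model difference was then 0.042 in place of −0.67.

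The mu-class Gst genes held the largest levels of all. Gstm1 stood at 1813, 1409 and 1839 FPKM in model livers, 2231, 1700 and 1283 FPKM in pomegranate-high livers, and 899.8, 1515 and 1070 FPKM in normal control livers. Normal control replicate 2 lay inside the range of both other groups, and the other 2 normal control libraries lay below all other libraries. The difference was 0.56 ± 0.30 (SE) for model minus normal control and 0.58 ± 0.30 for pomegranate-high minus normal control, neither past the threshold (limma adjusted p = 0.999 and 0.533). Without the 3 libraries of highest mitochondrial share the second was 0.18, with pomegranate-high replicate 3 the only library left in its group.

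Gstm7 was even across the model livers, at 762, 749.8 and 746 FPKM. It had 962, 673 and 563 FPKM in pomegranate-high livers and 584, 617 and 486 FPKM in normal control livers. Model and normal control livers did not overlap. Their difference of 0.43 ± 0.26 (SE) had 95% limits of −0.15 and 1.00 and a limma adjusted p of 0.999. Pomegranate-high livers overlapped with both other groups.

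Gstm3, also of the mu class, varied most of all tested conjugation enzymes, with 24.9 times between its lowest and highest library. It had 34.9, 58.8 and 113 FPKM in model livers, 143, 244 and 98.4 FPKM in pomegranate-high livers, and 9.79, 30.3 and 64.5 FPKM in normal control livers. Every pomegranate-high library was above every normal control library, whereas model libraries overlapped with both. The reads behind these values ran from 104 to 2254 per library, so counting error was small beside the spread.

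For Gstm3 the pomegranate-high minus normal control difference was 2.43 ± 0.64 (SE) on the log2(FPKM + 1) scale, the largest of any conjugation enzyme in the 3 comparisons. Its unadjusted p was 0.00325 and its limma adjusted p 0.309, and the adjusted p ran from 0.0805 to 0.858 over the 21 alternative settings. Model minus normal control came to 1.16 ± 0.64 and pomegranate-high minus model to 1.28 ± 0.64, with limma adjusted p-values of 0.999 and 0.599. Without the 3 libraries of highest mitochondrial share, pomegranate-high minus model was 0.27 and pomegranate-high minus normal control 1.825. In that setting pomegranate-high replicate 3 was the only library left in its group. Within the normal control group, the libraries differed by an SD of 1.31 on the log2 scale, more than for any other conjugation enzyme in that group.

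Gstm6l, a neighbour of Gstm3 inside the Gstm7 row, was lower and tighter. It stood at 8.07, 13.3 and 15.1 FPKM in model livers, 12.2, 12.6 and 16.6 FPKM in pomegranate-high livers, and 6.57, 10.3 and 8.01 FPKM in normal control livers. All pomegranate-high libraries were above all normal control libraries, by 0.68 ± 0.27 (SE) on average on the log2(FPKM + 1) scale (limma unadjusted p = 0.0294, adjusted p = 0.444). Model replicate 1 lay within the normal control range.

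Since reads could move between these copies, the sum of Gstm7, Gstm3, Gstm6 and Gstm6l was also taken. It came to 806, 823 and 875 FPKM in model livers, 1118, 930.0 and 679 FPKM in pomegranate-high livers, and 604, 658 and 559 FPKM in normal control livers, where the 3 normal control libraries were the lowest. This sum was formed after the values were seen and carries no test. Across libraries, Gstm7 correlated with Gstm3 at r = 0.33 (exact permutation p = 0.390, rho 0.23) and with Gstm6l at r = 0.31 (exact permutation p = 0.418, rho 0.17), each with an adjusted p of 0.501 for r over the 6 pairs. Without the 2 libraries farthest from the median, r was 0.30 for Gstm3 and −0.25 for Gstm6l.

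**Figure D2:**
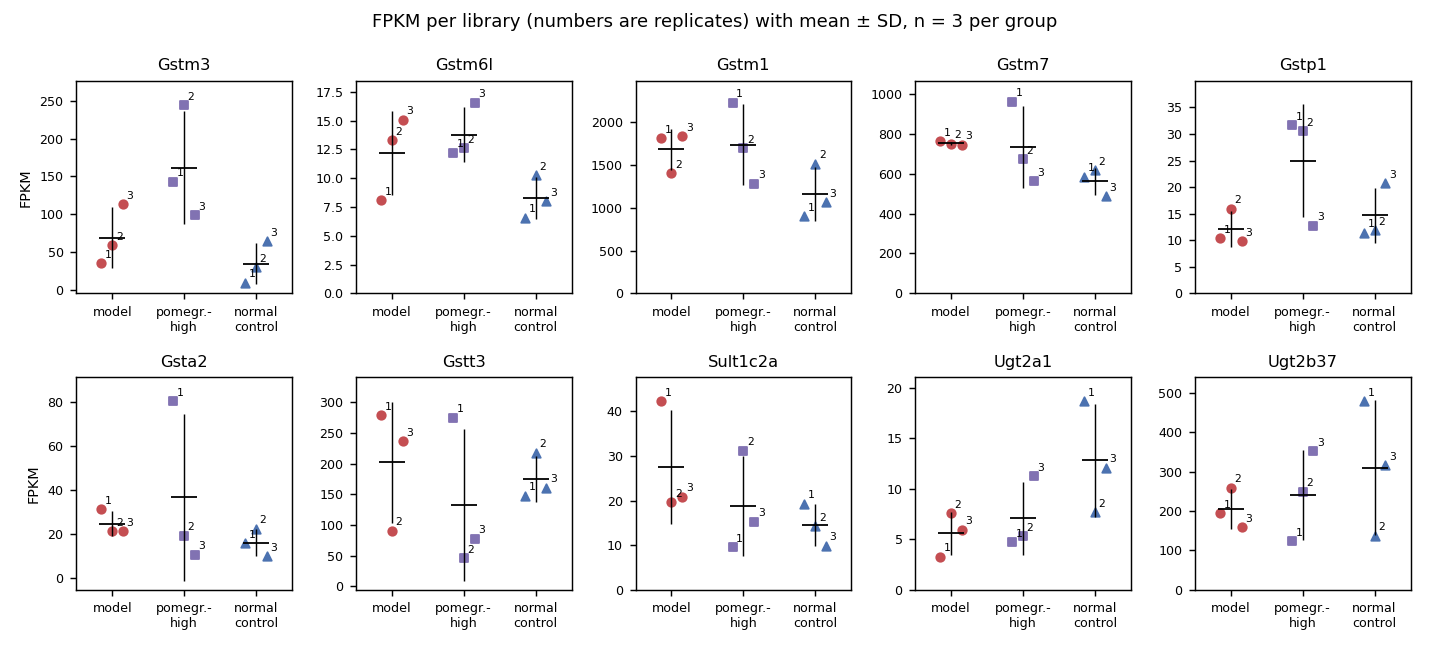
FPKM of 10 conjugation enzyme rows in each library, with replicate numbers, for model, pomegranate-high and normal control livers from left to right; black bars give the mean ± SD of 3 libraries. Gstm3 and Gstm6l lie higher in all pomegranate-high than in all normal control libraries, and Ugt2a1 lies lower in all model than in all normal control libraries, whereas the wide bars of Gsta2 and Gstt3 in pomegranate-high livers come with 1 high library.

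Alpha-class genes, whose enzymes conjugate lipid peroxidation products and bind bile pigments, had their highest values in pomegranate-high replicate 1. Gsta1 stood at 452, 426 and 379 FPKM in model livers, 557, 348 and 264 FPKM in pomegranate-high livers, and 312, 304 and 434 FPKM in normal control livers. Gsta5 stood at 260.5, 342 and 446 FPKM in model livers, 598, 171 and 214 FPKM in pomegranate-high livers, and 249, 449 and 260.0 FPKM in normal control livers. For both, pomegranate-high livers held the highest and the lowest library of the study. Differences between groups were at most 0.29 in size on the log2(FPKM + 1) scale for both genes.

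Gsta2 and Gsta3, named here after their values were seen, had the same high library. Gsta2 had 80.4, 19.1 and 10.5 FPKM in pomegranate-high livers, 31.2, 21.2 and 21.2 FPKM in model livers, and 15.8, 22.3 and 9.84 FPKM in normal control livers. Gsta3 had 15.3, 8.44 and 7.08 FPKM in model livers, 24.3, 1.77 and 5.37 FPKM in pomegranate-high livers, and 3.23, 6.38 and 4.30 FPKM in normal control livers. Model and normal control livers did not overlap for Gsta3, and did for Gsta2. The Gsta3 row lies within Gsta1, and Gsta3 averaged 8.46 FPKM over the 9 libraries where Gsta1 averaged 386 FPKM. Gsta1 and Gsta3 correlated at r = 0.67 (exact permutation p = 0.0462, 0.139 adjusted over 6 pairs; rho 0.62, exact permutation p = 0.0857, 0.257 adjusted). Without pomegranate-high replicates 1 and 3 r was 0.55. The remaining alpha-class row, Gsta4, stayed between 66.5 and 112 FPKM.

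Gstp1, the pi-class transferase known in rat liver as a marker of altered hepatocyte foci and of bile duct cells, was low in most libraries. It stood at 31.7, 30.6 and 12.7 FPKM in pomegranate-high livers, 10.4, 15.97 and 9.83 FPKM in model livers, and 11.4, 11.9 and 20.7 FPKM in normal control livers. The first 2 pomegranate-high libraries were above every other library, and the third lay among the model livers. Pomegranate-high minus model was 0.92 ± 0.37 (SE) on the log2(FPKM + 1) scale, with a limma unadjusted p of 0.0333 and an adjusted p of 0.533. Without pomegranate-high replicate 3 the difference was 1.33 with an adjusted p of 0.0821. Without the 3 libraries of highest mitochondrial share, which include pomegranate-high replicates 1 and 2, it was 0.015, and these were the ends of its range over the 21 alternatives.

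The summed level of cholangiocyte markers was also highest in pomegranate-high replicates 1 and 2. Over 6 genes it was 13.9, 30.4 and 6.65 FPKM in pomegranate-high livers, 7.48, 7.99 and 6.49 FPKM in model livers, and 6.93, 8.82 and 6.24 FPKM in normal control livers. The sum was lowest in normal control replicate 3, where Gstp1 stood at 20.7 FPKM. The stellate cell, T and B lymphocyte and red blood cell sums were highest in the same pomegranate-high replicates 1 and 2. For stellate cell markers these were 67.2 and 98.1 FPKM. The hepatocyte, sinusoidal endothelium and macrophage sums were not highest in both. Most of the cholangiocyte sum came from Epcam and Spp1, and Sox9 was highest in normal control replicate 1. Of the 6 cholangiocyte markers, only Epcam and Spp1 passed the filter on low values. Krt7, a keratin of bile duct cells, was listed at 0 in normal control replicates 1 and 3. The part of bile duct cells or of any other cell type in the Gstp1 level was not tested.

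Gstt3, a theta-class transferase, ranged from 45.9 to 279 FPKM. It had 275, 45.9 and 77.7 FPKM in pomegranate-high livers, 279, 90.3 and 236 FPKM in model livers, and 148, 218 and 161 FPKM in normal control livers. Pomegranate-high minus model was −0.86 ± 0.61 (SE) and pomegranate-high minus normal control −0.79 ± 0.61 on the log2(FPKM + 1) scale, both with intervals that include 0 and with overlapping groups. The low libraries were pomegranate-high replicates 2 and 3 and model replicate 2.

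Gstk1, a kappa-class transferase of mitochondria and peroxisomes, had 117, 115 and 72.4 FPKM in model livers, 106, 147 and 130.4 FPKM in pomegranate-high livers, and 121, 127 and 133 FPKM in normal control livers. All model libraries were below all normal control libraries, and the difference of −0.36 ± 0.25 (SE) had 95% limits of −0.92 and 0.21. Without model replicate 3, the lowest library, it was −0.13.

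The other Gst rows had overlapping groups in all 3 comparisons. Gstz1, the maleylacetoacetate isomerase of tyrosine breakdown, ranged from 216 to 322 FPKM, the narrowest Gst range at 1.495 times. Gsto1 ranged from 52.2 to 103 FPKM, Gstt1 from 33.2 to 87.4 FPKM, Gstt2 from 24.2 to 63.7 FPKM, Gstm4 from 17.8 to 41.6 FPKM and Gstm6 from 0.786 to 4.15 FPKM. These 6, like Gsta4, are named outside the rule for named genes, to account for every row.

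Sult1a1, which sulfates phenols, had 560.1, 375 and 400.3 FPKM in model livers, 626, 448 and 335 FPKM in pomegranate-high livers, and 456, 374 and 527 FPKM in normal control livers. Sult1b1, which sulfates phenols and thyroid hormones, had 128, 159 and 131 FPKM in model livers, 224, 155 and 191 FPKM in pomegranate-high livers, and 227, 151 and 159 FPKM in normal control livers. Groups overlapped for both. For Sult1b1, pomegranate-high minus model was 0.44 ± 0.25 (SE) and model minus normal control −0.34 ± 0.25 on the log2(FPKM + 1) scale, with limma adjusted p-values of 0.644 and 0.999.

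Members of the Sult1c group act on small phenols and arylhydroxylamines in rat liver. Sult1c3, paired in the table with sulfotransferase 1C1, had 135, 80.0 and 122.7 FPKM in model livers, 54.2, 112 and 95.1 FPKM in pomegranate-high livers, and 109, 92.0 and 59.1 FPKM in normal control livers. Sult1c2a had 42.3, 19.6 and 20.9 FPKM in model livers, 9.57, 31.2 and 15.3 FPKM in pomegranate-high livers, and 19.3, 14.2 and 9.92 FPKM in normal control livers. The model libraries of Sult1c2a were all above those of the normal control group, the nearest by 19.6 against 19.3 FPKM, while Sult1c3 overlapped.

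The first Sult1c2 row (ENSRNOG00000040215) had 8.69, 11.3 and 2.16 FPKM in model livers, 5.20, 3.32 and 9.85 FPKM in pomegranate-high livers, and 4.89, 1.17 and 1.89 FPKM in normal control livers. Its model minus normal control difference was 1.12 ± 0.55 (SE) and that of Sult1c2a 0.84 ± 0.44 on the log2(FPKM + 1) scale, each with a limma adjusted p of 0.999. Both Sult1c2 rows and Sult1c2a together came to 51.6, 31.5 and 23.4 FPKM in model livers, 15.1, 34.7 and 25.9 FPKM in pomegranate-high livers, and 24.2, 15.8 and 12.02 FPKM in normal control livers. As a sum the model and normal control groups overlapped, since model replicate 3 was below normal control replicate 1.

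Model and normal control livers were compared first, to ask how the conjugation enzymes stood in the model. None of the 28 tested rows passed an adjusted p of 0.05, where 0.00903% of all 11078 genes tested did, a single gene. More conjugation enzyme rows were higher than lower in model livers, 20 against 8, with a median log2 difference of 0.20, whereas 45.9% of all genes were above 0 and their median was −0.03. Of the Gst rows 14 of 18 were above 0, of the Ugt rows 3 of 5 and of the Sult rows 3 of 5. No row was higher at an unadjusted p under 0.05 (background 1.2% of all genes) and 1 was lower, Ugt2a1 (background 1.78%).

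In all model libraries, 3 rows (Gstm7, Gsta3 and Sult1c2a) were higher than in all normal control libraries, where 3.97% of all genes were, and 2 rows, Ugt2a1 and Gstk1, were lower in all, where 4.82% of all genes were. The counts of 3 and 2 among 28 stand above these shares, and with so few rows no more is read from them. The summed FPKM of the mu-class genes was 2637, 2272 and 2756 in model livers, against 1527, 2212 and 1668 in normal control livers, and the summed Ugt2b level was 597, 577 and 507 against 762, 420.3 and 655. Mu-class sums thus did not overlap while Ugt2b sums did, as a description with no test. The count of 20 rows above 0 ran from 16 to 23 of 28 when 1 library at a time was left out, and was 16 without model replicate 3 and likewise without normal control replicate 1. Of the 28 rows, 11 changed sign under at least 1 alternative, each with a difference of at most 0.24 in size.

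In the same comparison, endothelial, macrophage and red blood cell markers were lower. Sinusoidal endothelium markers summed to 43.1 to 72.3 FPKM in model livers and 98.0 to 105.8 FPKM in normal control livers, with 6 of 6 lower. Kupffer cell and macrophage markers summed to 62.3 to 141.6 FPKM in model livers and 155.6 to 293.3 FPKM in normal control livers, also with 6 of 6 lower, and red blood cell markers to 474 to 1256 FPKM against 1259 to 1896 FPKM, with 5 of 5 lower. Hepatocyte markers were lower in 6 of 8, with sums of 74182 to 79415 FPKM in model livers and 77134 to 85677 FPKM in normal control livers. None of these markers passed an adjusted p of 0.05 in limma, and their part in the conjugation enzyme levels was not tested.

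Pomegranate-high livers were then set against model livers. Whether the pomegranate-high rats also received the model treatment is not given, so a difference here cannot be assigned to pomegranate alone. None of the 28 rows passed the adjusted threshold, where again 0.00903% of all genes did. Of the 28, 12 were above 0 with a median log2 difference of −0.07, while 61.0% of all genes were above 0 and the median of all genes was 0.09. The excess of genes above 0 depends on how libraries are scaled. With each library rescaled to the same sum (TPM) the median of all genes was 0.00 and 8 of 28 rows were above 0, with median-of-ratios scaling −0.01 and 8 of 28, and with quantile normalization −0.02 and 7 of 28.

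At an unadjusted p under 0.05, 1 row was higher, Gstp1 (background 7.12%), and 0 were lower (background 1.57%). No row was separated from the model group in either direction. Of all genes, 8.78% were higher and 2.05% lower in all pomegranate-high libraries. With so few rows, nothing is read from 0 of 28 against these shares. The members with the smallest p above 0 were Gstp1, Gstm3 and Sult1b1, and below 0 Ugt2b10, Gstt3 and Sult1c2a. Summed Gst levels were 5696, 3877 and 3152 FPKM in pomegranate-high livers and 4361, 3818 and 4477 FPKM in model livers, with the model values inside the pomegranate-high range. Leaving out pomegranate-high replicate 2 gave 19 of 28 rows above 0 in place of 12, and leaving out replicate 1 gave 8. In all, 20 of the 28 rows changed sign under at least 1 of the 21 alternatives.

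Markers of other cells were higher in pomegranate-high than in model livers. Red blood cell markers were higher in 5 of 5 and included the single marker past the threshold, the globin gene Hba-a3 (limma adjusted p = 0.0386). Stellate cell markers summed to 37.7 to 98.1 FPKM in pomegranate-high livers and 21.7 to 46.1 FPKM in model livers, with 6 of 6 higher, Kupffer cell and macrophage markers to 134 to 382 FPKM and 62.3 to 142 FPKM, with 6 of 6 higher, and T and B lymphocyte markers to 7.07 to 17.5 FPKM and 3.57 to 6.98 FPKM, with both tested genes higher. Hepatocyte markers were higher in 5 of 8, although they summed to 64290 to 76068 FPKM in pomegranate-high livers and 74182 to 79415 FPKM in model livers. The largest part of each sum was the albumin gene Alb, which averaged 28140 FPKM in pomegranate-high and 39616 FPKM in model livers. Hpx, another of the 8, averaged 8227 and 4042 FPKM in the same groups. The part of these cells in the values above was not tested.

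The last comparison set pomegranate-high against normal control livers. It shares the pomegranate-high libraries with the second and the normal control libraries with the first, so its values are not independent of theirs. None of the 28 rows passed the adjusted threshold, where 0.0181% of all genes did, 2 genes. With 16 rows above 0 and a median log2 difference of 0.06 the conjugation enzymes resembled all genes, of which 57.4% were above 0 with a median of 0.07. Rescaled to TPM, 12 of 28 were above 0 and the median of all genes was −0.04. Here too 20 of the 28 rows changed sign under at least 1 alternative, and Gstm3 and Gstm6l did not.

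Gstm3 and Gstm6l were higher at an unadjusted p under 0.05 (2 rows, background 7.24%) and 0 rows were lower (background 2.92%). The same 2 genes were the ones higher in all pomegranate-high than in all normal control libraries, where 12.4% of all genes were, and no row was lower in all, where 3.66% of all genes were. These shares are near or below the background. By family, 10 of 18 Gst rows, 2 of 5 Ugt rows and 4 of 5 Sult rows were above 0. In the same comparison sinusoidal endothelium markers were lower in 6 of 6 (51.8 to 91.5 FPKM in pomegranate-high livers, 98.0 to 105.8 FPKM in normal control livers), while stellate cell markers were higher in 4 of 6, with sums of 37.7 to 98.1 FPKM in pomegranate-high livers and 24.8 to 37.1 FPKM in normal control livers. Red blood cell markers were higher in 5 of 5 and both tested T and B lymphocyte markers were higher, whereas Kupffer cell and macrophage markers were higher in 3 of 6. Hepatocyte markers were higher in 4 of 8, with sums of 64290 to 76068 FPKM in pomegranate-high livers and 77134 to 85677 FPKM in normal control livers, which did not overlap. Alb, the largest part of each sum, averaged 28140 FPKM in pomegranate-high and 42203 FPKM in normal control livers. Hpx averaged 8227 and 4850 FPKM in the same groups, so the separation of the sums does not describe the list as a whole. None of these markers passed an adjusted p of 0.05 in limma, and their part in the values was not tested.

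**Figure D3:**
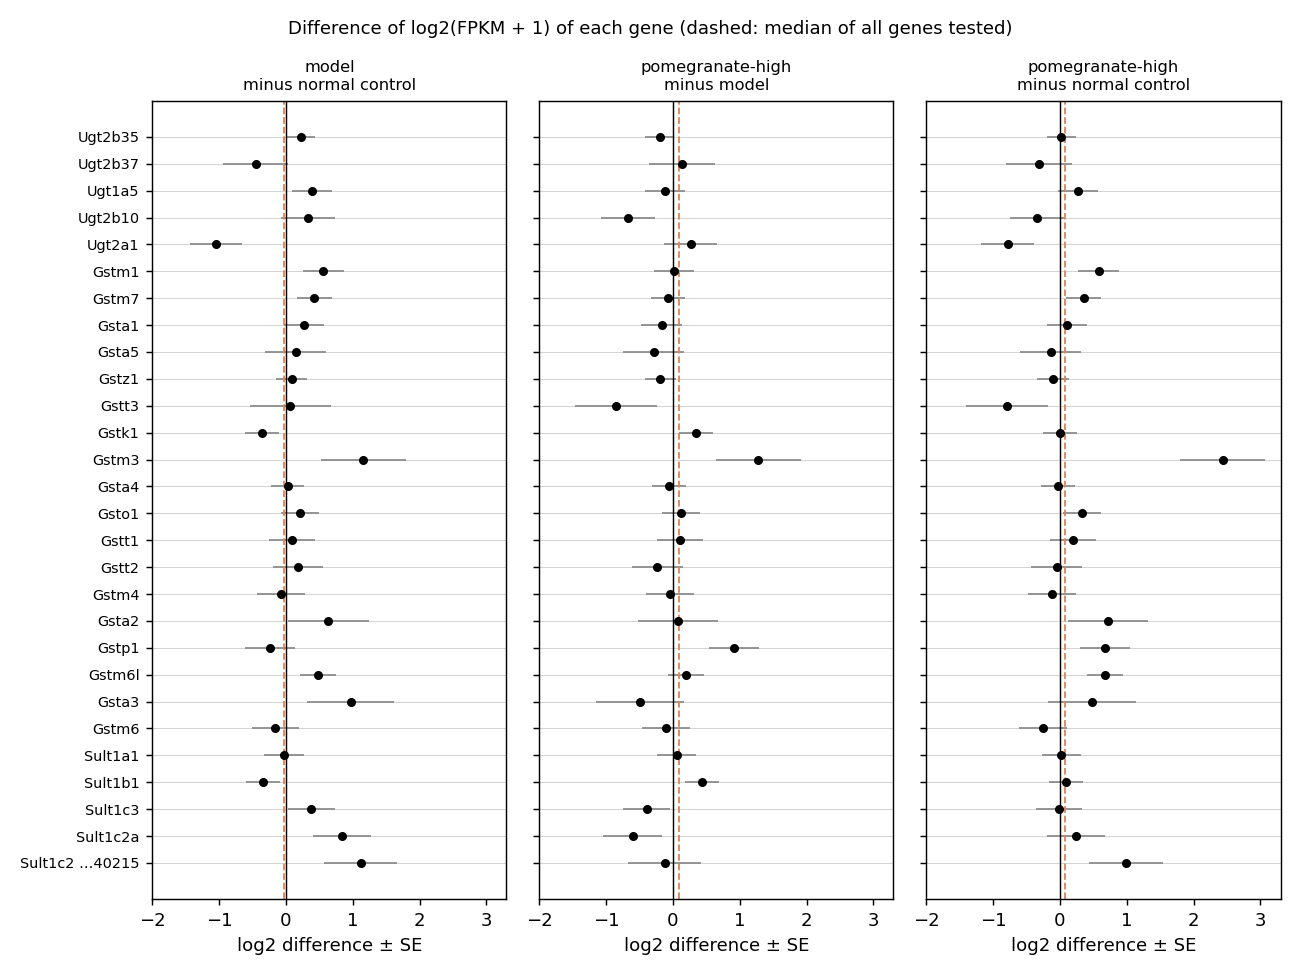
Difference in log2(FPKM + 1) with its standard error for each of the 28 tested rows, in model minus normal control, pomegranate-high minus model and pomegranate-high minus normal control from left to right; the dashed line marks the median of all genes tested. Gstm3 lies farthest from 0, at 2.43 ± 0.64 in the right panel, and no row passed the adjusted threshold in any panel.

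The spread of the conjugation enzymes was widest in pomegranate-high livers, and stood above that of all genes tested both there and in normal control livers. The median SD of a row's log2 value within a group was 0.50 for the tested conjugation enzymes in pomegranate-high livers, 0.36 in model livers and 0.38 in normal control livers. For all genes tested it was 0.34, 0.33 and 0.23 in the same groups. Gsta3 was the most variable in pomegranate-high livers (SD 1.61) and the first Sult1c2 row in model livers (SD 1.05).

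Pomegranate-high replicate 1 had the highest level of 11 of the 28 tested rows, where 14.9% of all genes tested were highest in it. The 11 were Gstm1, Gstm7, Gsta1, Gsta2, Gsta3, Gsta4, Gsta5, Gsto1, Gstt1, Gstp1 and Sult1a1, and thus 10 Gst rows, 1 Sult row and no Ugt row. In model replicate 1, 5 rows were highest (12.5% of all genes), and in normal control replicate 1, 4 rows (5.18%). In normal control replicates 2 and 3, 0 rows were highest (7.28% and 9.88% of all genes). Pomegranate-high replicate 1 was lowest for 3 rows, among them Ugt2b37, where 22.3% of all genes were lowest in it. Its summed Gst level of 5696 FPKM was the highest of the 9 libraries, while its summed Ugt level of 559 FPKM was near the lowest, 555 FPKM in normal control replicate 2.

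**Figure D4:**
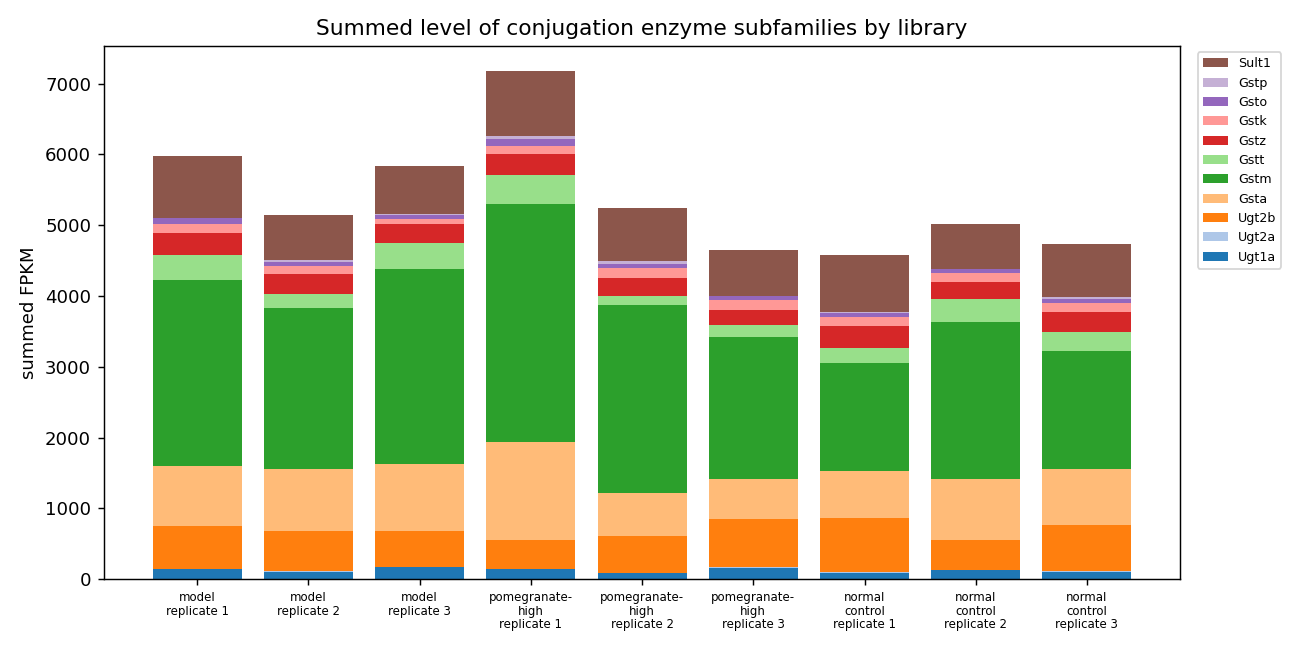
Summed FPKM of the conjugation enzyme subfamilies in each library, stacked, for model, pomegranate-high and normal control livers from left to right; subfamilies that never reach 3 FPKM are left out. Totals run from 4585 FPKM in normal control replicate 1 to 7178 FPKM in pomegranate-high replicate 1, and the mu-class (Gstm) part is the largest in every library.

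Genes around the conjugation enzymes were described through 9 lists with 141 symbols, of which 129 were found in the table and 121 entered the test. None of their genes passed an adjusted p of 0.05 in any of the 3 comparisons. In the list around UDP-glucuronic acid, 7 of 8 tested genes were above 0 in model against normal control livers (median 0.35). For pomegranate-high livers it was 4 of 8 against model livers (−0.02) and 6 of 8 against normal control livers (0.34). The list also holds Gys2 and Uxs1, which do not supply UDP-glucuronic acid, so these counts do not describe supply alone. Gys2, the liver glycogen synthase, which draws on the same UDP-glucose pool, had 34.3, 29.98 and 30.9 FPKM in model livers, 44.6, 26.9 and 30.4 FPKM in pomegranate-high livers, and 21.5, 20.7 and 20.3 FPKM in normal control livers. Both other groups lay above the normal control livers, by 0.58 ± 0.23 and 0.65 ± 0.23 (SE) on the log2(FPKM + 1) scale. Slc35b1 and Slc35d2, of the nucleotide sugar transporter family, were the others named, with differences of 0.48 ± 0.25 and 0.52 ± 0.27 between pomegranate-high and normal control livers.

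For glutathione synthesis and recycling, 5, 3 and 6 of 11 tested genes were above 0 in the 3 comparisons in the same order, with medians of −0.01, −0.09 and 0.11. Cbs, cystathionine beta-synthase, which feeds homocysteine into cysteine, had 147, 192 and 161 FPKM in model livers, 133, 75.0 and 138 FPKM in pomegranate-high livers, and 244, 213 and 306 FPKM in normal control livers. All libraries of both other groups were below all normal control libraries, and pomegranate-high minus normal control was −1.17 ± 0.29 (SE), with a limma adjusted p of 0.285. Chac2, which breaks down glutathione, was at 1.05 ± 0.40 for model minus normal control, and Ggct, a gamma-glutamylcyclotransferase, at 0.61 ± 0.28 for pomegranate-high minus normal control.

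For the supply of PAPS, the sulfate donor, 6, 3 and 5 of 8 tested genes were above 0, with medians of 0.09, −0.17 and 0.14. Papss1, one of the PAPS synthases, had 1.99, 2.49 and 1.59 FPKM in pomegranate-high livers, 0.948, 1.51 and 0.990 FPKM in model livers, and 1.41, 0.993 and 0.875 FPKM in normal control livers. The pomegranate-high libraries were above all others, with a difference from model livers of 0.49 ± 0.21 (SE) and a limma adjusted p of 0.566. Suox, sulfite oxidase, was at −0.50 ± 0.20 for pomegranate-high minus normal control, and the PAPS transporter Slc35b3 at 0.43 ± 0.21 for pomegranate-high minus model.

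Other phase II transferases had 11, 8 and 9 of 18 tested genes above 0, with medians of 0.10, −0.04 and −0.02. Their named genes were Acsm5, a medium-chain acyl-CoA synthetase (−1.48 ± 0.58 SE for pomegranate-high minus normal control), the arylamine acetyltransferase Nat1 (0.86 ± 0.36) and the nicotinamide methyltransferase Nnmt (−1.04 ± 0.48). Deconjugating enzymes had 4, 5 and 5 of 11 above 0, with medians of −0.12, −0.01 and −0.06. The named genes Arsb, a lysosomal sulfatase, and Acy3, an aminoacylase of mercapturic acids, were at −0.74 ± 0.26 and −0.94 ± 0.34 for pomegranate-high minus normal control, and the dipeptidase Dpep1 at 0.60 ± 0.26.

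Xenobiotic receptors and their regulators were below 0 for most genes, with 6, 6 and 5 of 19 above 0 and medians of −0.27, −0.26 and −0.39. Rxra, the common partner of the nuclear receptors, had 6.19, 11.7 and 97.5 FPKM in pomegranate-high livers, 43.2, 75.6 and 124 FPKM in model livers, and 109.6, 130.5 and 109.1 FPKM in normal control livers. Pomegranate-high replicates 1 and 2 were far below all other libraries and replicate 3 was within their range, and the difference from normal control livers was −2.49 ± 0.79 (SE) with a limma adjusted p of 0.395. Nr1i2, which encodes the pregnane X receptor, had 110.4, 58.3 and 100.7 FPKM in pomegranate-high livers, against 163, 149.9 and 144 FPKM in normal control livers, with no overlap and a difference of −0.80 ± 0.30.

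Receptor target genes outside the family had 8, 5 and 5 of 16 tested above 0, with medians of −0.01, −0.15 and −0.12. The cytochrome P450 gene Cyp3a9 stands on 2 rows. The row named by its p (ENSRNOG00000001379) had 13.8, 31.5 and 8.17 FPKM in pomegranate-high livers, 5.69, 6.99 and 6.46 FPKM in model livers, and 5.04, 2.88 and 5.40 FPKM in normal control livers, with every pomegranate-high library highest. The other (ENSRNOG00000046643) had 28.0, 15.3 and 26.6 FPKM in pomegranate-high livers, 29.8, 13.9 and 47.1 FPKM in model livers, and 14.6, 37.8 and 27.5 FPKM in normal control livers, and its groups overlapped. Near copies make the assignment of reads to either row uncertain. Hmox1, heme oxygenase, was at 1.59 ± 0.46 (SE) for pomegranate-high minus model, and Cyp3a2 was at −1.16 ± 0.58. Hmox1 had 44.0, 62.0 and 31.6 FPKM in pomegranate-high livers, where Kupffer cell and macrophage markers summed to 382, 134 and 177 FPKM. The part of these cells in the Hmox1 level was not tested.

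Transporters of conjugates had 9, 6 and 9 of 16 above 0, with medians of 0.07, −0.06 and 0.02. Their named genes were the anion transporter Slc17a3 (0.62 ± 0.25 SE for model minus normal control), the export pump Abcc5 (0.49 ± 0.22 for pomegranate-high minus model) and the uptake carrier Slco1b2 (0.96 ± 0.44 for model minus normal control). Sex-biased rat liver genes were followed because several conjugation enzymes differ between the sexes, and 9, 5 and 5 of 14 were above 0, with medians of 0.15, −0.28 and −0.27. The list pools genes typical of either sex, so these counts give no direction of a sex pattern. Cyp2c11, the male-typical P450, had 951, 595 and 560.2 FPKM in model livers, 744, 838 and 578 FPKM in pomegranate-high livers, and 488, 380.2 and 374 FPKM in normal control livers, so it was abundant in all 9. The female-typical Cyp2c12, named here after its values were seen, ranged from 8.54 FPKM in pomegranate-high replicate 3 to 110 FPKM in pomegranate-high replicate 2. The major urinary protein gene Mup4 has near-identical copies and stands on 2 rows. The first (ENSRNOG00000033130) was at 2.66 ± 0.49 (SE) for model minus normal control and the steroid dehydrogenase Hsd17b2 at 1.66 ± 0.43, without passing in limma (adjusted p = 0.412 and 0.999). The second Mup4 row (ENSRNOG00000050499) was at 0.014 ± 0.87.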

How the data were processed

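The authors deposited 1 table of FPKM values with 20236 rows and a separate column for each liver library. Named without roles in the submitters' processing notes are HISAT2, Bowtie2 2.2.3, TopHat2, DESeq, DESeq2 and HTSeq 0.6.0, with build Rnor_6.0. Per the labels' protocols, libraries were made from oligo(dT)-purified RNA with a strand-marking buffer. Whether counting used strand, and how reads of overlapping or near-identical genes were assigned, is not stated by the sources used here.

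Titles matched all 9 columns to samples, and 0 stayed unmapped. FPKM values were whole multiples of 1 read per gene and library. Within a tolerance of 0.001 reads, 100% of the 146433 values above 0 came out whole, and the reads recovered made up at least 99.987% of each depth.

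Rows that reached 1 FPKM in 3 or more libraries (11078) were tested on log2(FPKM + 1) with limma 3.58.1, under R 4.3.3. Low genes have their fold change understated by the pseudocount of 1. All 9 libraries and 3 groups entered 1 fit with an intensity trend. Two-sided p-values were adjusted after Benjamini and Hochberg over all rows tested, with a threshold of 0.05. The code was tested on simulated data. Sums of FPKM, group separation and ranges are descriptions. Correlations of overlapping rows were computed with scipy 1.17.1, and their exact permutation p-values by enumerating every order of the 9 libraries.

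The conjugation enzymes, the 9 lists of related genes and the 7 lists of cell markers were chosen with earlier results of these data known, so no list was tested as a set. Conjugation enzymes were named with all values if past the threshold, if among the smallest p-values per direction in a comparison, or if among the 4 highest levels of a family, which gave 19 rows. From each other list up to 3 genes with the smallest p were named. One gene chosen by this rule is not reported here. Replicate numbers only name the libraries. The 21 alternatives per comparison were a pseudocount of 0.1, other filters, TPM, median-of-ratios and quantile scaling, the 2 groups alone, library quality weights, no intensity trend, voom on recovered reads, mitochondrial share as covariate, exclusion of the 3 libraries of highest share, and leaving out each library. Excluding the 3 libraries of highest share leaves pomegranate-high replicate 3 as the only library of its group.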

Additional observations from a re-analysis of the deposited data

How the results depend on the processing

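None of the conjugation enzymes passed an adjusted p of 0.05 in any comparison under any of the 21 alternatives. The count of all genes past it changed as follows. For model against normal control it was 1, and 0 with a pseudocount of 0.1, without a filter, with a mean FPKM of at least 5, with quantile normalization, with voom on recovered reads and with mitochondrial share as covariate. It was 10 with library quality weights, 2 without the 3 libraries of highest mitochondrial share, and 0 to 1 when 1 library was left out. For pomegranate-high against model it was 1, and 0 without a filter, with median-of-ratios or quantile scaling, with the 2 groups alone, with voom and with the mitochondrial covariate. Leaving out 1 library gave 0 to 77. For pomegranate-high against normal control it was 2, and 0 with a pseudocount of 0.1, without a filter, with a mean FPKM of at least 5, with TPM and with the 2 groups alone. It was 1 with median-of-ratios or quantile scaling, without the intensity trend, with voom and with the mitochondrial covariate, 6 with library quality weights, and 0 to 328 when 1 library was left out. The counts of 77 and 328 both came without pomegranate-high replicate 3. Counts without the 3 libraries of highest mitochondrial share are left out here and below for comparisons with pomegranate-high livers. That group then holds pomegranate-high replicate 3 alone.

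Conjugation enzymes at an unadjusted p under 0.05 numbered 1 for model against normal control, 2 with quantile normalization or the mitochondrial covariate, 3 with the 2 groups alone or without the 3 libraries of highest mitochondrial share, 4 with library quality weights, and 1 to 2 when 1 library was left out. For pomegranate-high against model they numbered 1, 0 with median-of-ratios or quantile scaling, 2 with the 2 groups alone, 4 with library quality weights, and 0 to 3 when 1 library was left out. For pomegranate-high against normal control they numbered 2, 1 with TPM, 3 without a filter, with median-of-ratios or quantile scaling or with library quality weights, and 2 to 5 when 1 library was left out. Of the 28 tested enzymes, 11 changed sign in at least 1 alternative for model against normal control, 20 for pomegranate-high against model and 20 for pomegranate-high against normal control. Among the 3 with the smallest p per direction and comparison, this was Ugt2b10 alone. Without the 3 libraries of highest mitochondrial share, only pomegranate-high replicate 3 stood for its group. The log2 difference of Ugt2b10 was then 0.042 for pomegranate-high minus model and 0.35 for pomegranate-high minus normal control. The second ran from −0.69 to 0.18 when 1 library was left out. The cause of these changes was not tested. No paired analysis was possible because replicate numbers follow the order of the samples and match nothing across groups. With 3 libraries a group, an adjusted p above the threshold does not show equal levels, as the 95% limits show.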
